A study of Rattus norvegicus with 12 samples.

Results

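Gene expression was compared between proliferating and quiescent rat neural stem cells in which the level of Rest, the gene of the transcriptional repressor REST, had been lowered. The cells were HCN cells, a line of hippocampal neural stem cells of the adult rat, grown as a monolayer. The first group, TAP Rest knockdown, held 4 libraries of cells in medium with FGF2 only, in which they divide. The other, iQNP Rest knockdown, held 4 libraries of cells in medium with FGF2 and BMP4, which holds them in induced quiescence. Both groups carried a vector for a short hairpin RNA against Rest, introduced by electroporation. For reference, 2 TAP control and 2 iQNP control libraries came from cells electroporated with an empty vector, so that the knockdown groups made up 8 of the 12 libraries. HCN cells are a line kept for multiple passages, so the libraries of a group are cultures of the same line and not separate animals, and FGF2 is common to all 4 groups, BMP4 to the iQNP groups only.

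All libraries were total RNA depleted of ribosomal RNA. For each group the authors' tables give 1 level per gene, in FPKM (mapped fragments corrected for the length of the transcript and the size of the library), which pools the libraries of the group. Levels of single libraries were not analysed here. No error therefore stands beside any level, no test was possible, and a difference is described by its size alone. The measure is the log2 ratio of the TAP level to the iQNP level, with 1 FPKM added to each. A gene counts as higher or lower in TAP where the ratio is at least 2-fold, that is a log2 ratio of 1 or more in size, and as measured where it had at least 1 FPKM in 1 or both of the groups compared. Of 16468 genes listed, 9745 were measured in the knockdown groups and 9654 in the control groups.

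REST binds a DNA element near genes of neurons and recruits enzymes that remove active chromatin marks, and it is best known for keeping neuronal genes low outside neurons. Adult neural stem cells of the hippocampus rest for long periods and then divide as progenitors. In culture BMP signals, which act through SMAD proteins, hold these cells in reversible quiescence, whereas FGF2 alone lets them divide. The comparison asks which differences between the dividing and the resting state are seen when Rest is low in both.

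Rest itself (chr14:33136046-33151142 in the rat genome build rn4) was low in both states. It stood at 9.002 FPKM in TAP knockdown and 13.9 FPKM in iQNP knockdown cells, against 27.8 FPKM in TAP control and 48.7 FPKM in iQNP control cells. Knockdown thus left 32.4% of the control level in TAP and 28.5% in iQNP. The ratio between the states was below 2-fold after knockdown (log2 ratio -0.57) and in control (-0.79).

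The TAP and iQNP levels come from separate Cuffdiff runs, so their common scale was checked. Over 9206 genes with at least 1 FPKM in both knockdown groups the median log2 ratio was -0.04, and 25% of these genes lay below -0.44 and 25% above 0.32. The median in control was -0.02 over 8942 genes. One class of transcripts bears on the scale. Genes of cytosolic ribosomal proteins took 35.7% of the summed FPKM in TAP knockdown and 26.6% in iQNP knockdown cells, against 11.7% in TAP control and 7.26% in iQNP control cells. Scaling the knockdown groups to the same sum without these genes moves log2 ratios upwards by about 0.25, and the effect on counts is given beside them.

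Markers of neural progenitors were at high levels, with few transcripts of blood, vessel or connective tissue cells. Sox2, a stem cell transcription factor, stood at 220.2 FPKM in TAP knockdown and 172 FPKM in iQNP knockdown cells, and Nes, the progenitor filament nestin, at 89.6 FPKM in TAP and 87.7 FPKM in iQNP. Of 16 microglia and leukocyte markers 4 were measured after knockdown, 0 of them 2-fold higher and 0 lower in TAP, with summed levels of 59.4 FPKM in TAP knockdown and 76.9 FPKM in iQNP knockdown cells, and the defining markers Aif1, Itgam and Cx3cr1 were below 1 FPKM in both. Of 8 endothelial markers 1 was measured, Flt1, at 0.0823 FPKM in TAP knockdown and 1.43 FPKM in iQNP knockdown cells, and Pecam1 and Cdh5 were below 1 FPKM in both. Of 15 fibroblast and mural markers 4 were measured and 2, Tagln and Postn, were lower in TAP, with summed levels of 12.4 FPKM in TAP knockdown and 52.7 FPKM in iQNP knockdown cells, while the fibrillar collagen genes Col1a1, Col1a2 and Col3a1 were below 1 FPKM in both.

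After knockdown 407 genes were higher in TAP (4.18% of those measured) and 941 were lower (9.66%), so 30.2% of the genes called were higher. With both knockdown groups scaled to the same sum of FPKM without ribosomal protein genes 742 were higher and 655 lower, so that the higher genes made up 53.1%. The lower genes reached larger ratios. At 4-fold or more, 22 genes were higher and 207 lower, and at 8-fold or more 1 was higher and 74 lower. The median level of the higher state was 23.97 FPKM for the higher genes and 19.8 FPKM for the lower genes, against 24.8 FPKM over all measured genes. Among the higher genes 35 were below 1 FPKM in iQNP, and among the lower genes 200 were below 1 FPKM in TAP.

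**Figure D1:**
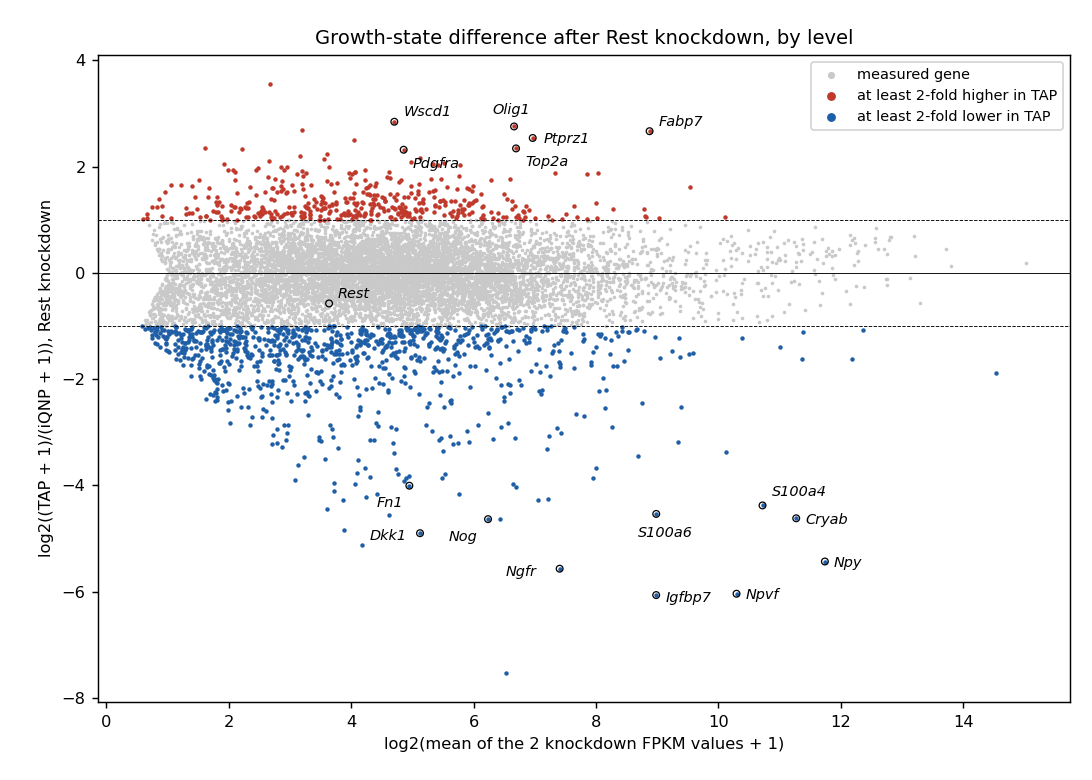
Log2 ratio of TAP to iQNP after Rest knockdown (vertical axis, 1 FPKM added to each level) against log2 of the mean knockdown level plus 1 FPKM (horizontal axis), 1 point for each measured gene, with 2-fold limits dashed. The ratios below zero reach further, to -6.06 for Igfbp7 among the labelled genes, than those above, where Wscd1 stands at 2.84.

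Control differences in which TAP was lower were more often also found after knockdown than those in which TAP was higher, a difference of shares that was not tested. In control cells 628 genes were higher in TAP (6.51% of those measured) and 1044 were lower (10.8%). With both control groups scaled to the same sum of FPKM 837 were higher and 897 lower, which puts the share of higher genes at 48.3% (54.2% without ribosomal protein genes) in place of 37.6%. Of the higher genes 256 were also 2-fold higher after knockdown, which is 40.8% of the control list and 62.9% of the knockdown list. Of the lower genes 665 were also 2-fold lower, or 63.7% of the control list and 70.7% of the knockdown list. The direction alone was kept by 555 of the higher and 1017 of the lower genes. The gap between the shares depended on the scaling. With the same sum of FPKM without ribosomal protein genes it was smaller, at 469 of 929 higher and 479 of 786 lower genes also called after knockdown. Genes chosen for a large control ratio tend to have smaller ratios in any other measurement, so the median ratio of the chosen genes, 0.87 after knockdown and 1.24 in control for the higher set, and -1.21 and -1.43 for the lower set, is a description of these genes and no estimate of a loss. The comparisons share no library, but each knockdown group shares its Cuffdiff run with the control group of the same growth state.

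The genes with the largest ratios above zero included several of glial and oligodendrocyte progenitors. Olig1 (chr11:31244279-31246421 in rn4), a transcription factor of the oligodendrocyte lineage, stood at 175 FPKM in TAP knockdown and 25.1 FPKM in iQNP knockdown cells (log2 ratio 2.76), against 53.7 FPKM in TAP control and 9.22 FPKM in iQNP control cells (2.42). Its neighbour in that lineage, Olig2, had 149 FPKM in TAP knockdown and 43.2 FPKM in iQNP knockdown cells (1.76), and Pdgfra (chr14:35369422-35418126 in rn4), the PDGF receptor of oligodendrocyte progenitors, 47.3 FPKM in TAP and 8.68 FPKM in iQNP (2.32). Gpr17, a receptor of the same progenitors, was the smallest of these in level, at 5.58 FPKM in TAP knockdown and 0.952 FPKM in iQNP knockdown cells (1.75). In control the ratios were 2.02 for Olig2, 2.31 for Pdgfra and 2.57 for Gpr17, so these differences between the states were present with and without knockdown. Of 15 measured oligodendrocyte markers 5 were higher and 1 was lower after knockdown, with a median of 0.60, against -0.07 over all measured genes. Sox10, a transcription factor of the whole lineage, stood at 348 FPKM in TAP and 380.4 FPKM in iQNP (-0.13). In bulk RNA, fewer cells of a type and less RNA per cell cannot be told apart.

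The other genes with large ratios above zero had varied roles. Fabp7, a fatty acid binding protein of radial glia, had 810.2 FPKM in TAP knockdown and 127 FPKM in iQNP knockdown cells, a log2 ratio of 2.67, and 2.94 in control. Ptprz1, a receptor phosphatase of glial progenitors, had 212 FPKM in TAP knockdown and 35.7 FPKM in iQNP knockdown cells (2.54, and 1.84 in control). Gpm6a, a membrane glycoprotein of the nervous system, had a ratio of 2.51 after knockdown and 2.51 in control. The adenosine receptor gene Adora1 (2.20), the glial receptor gene Gpr37l1 (2.16), the membrane-anchored semaphorin gene Sema7a (2.14), Lppr1 (2.68), the nuclear pore gene Nup210 (2.23) and Wscd1 (2.84) completed the largest ratios beside Top2a, and each of them had a smaller ratio in control, between 1.27 for Sema7a and 2.08 for Wscd1. Genes chosen for a large ratio after knockdown tend to have smaller ones in control, so this is no estimate of a gain with knockdown. Among genes below 1 FPKM in iQNP knockdown, the adhesion molecule gene Ncam2 stood at 6.72 FPKM in TAP knockdown and 0.534 FPKM in iQNP knockdown cells, Bpifb1 at 5.11 FPKM in TAP and 0.473 FPKM in iQNP, the connexin gene Gjb1 at 5.66 FPKM in TAP and 0.730 FPKM in iQNP, and the amino acid transporter gene Slc38a4 at 5.73 FPKM in TAP and 0.809 FPKM in iQNP. Myl6l, the gene above 8-fold, listed at 10.8 FPKM in TAP knockdown and at 0 in the other groups, shares reads with a merged entry of Myl6 and Myl6l, so its value is uncertain.

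Neural stem cell regulators differed in both directions. Of 25 measured, 2 were higher and 3 lower in TAP, beside 4.18% higher and 9.66% lower among all measured genes, with a median of 0.05. Ptprz1 was among the higher ones. The lower ones were Hmga2, a chromatin protein of young stem cells (5.67 FPKM in TAP and 19.7 FPKM in iQNP, -1.63), the intermediate filament gene Vim (-1.12) and the Hedgehog receptor component Smo (-1.08), of which Vim and Smo had ratios of -0.87 and -0.86 with the same sum of FPKM without ribosomal protein genes. Of 18 measured astrocyte markers 2 were higher, Fabp7 (2.67) and Kcnj16 (1.25), and 5 lower. The defining marker S100b was within 2-fold (-0.37). Gfap, the filament of astrocytes and of resting stem cells, stood at 1.36 FPKM in TAP knockdown and 18.9 FPKM in iQNP knockdown cells (-3.08), against 1.06 FPKM in TAP control and 16.98 FPKM in iQNP control cells (-3.13), while Aqp4, the astrocyte water channel, was below 0.1 FPKM in all.

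Of all gene groups examined, mitosis had the largest share of higher members. Of 54 measured, 36 were higher in TAP after knockdown and 0 lower, with a median log2 ratio of 1.14, and 53 had a ratio above zero. In control 35 of 53 were higher, with a median of 1.25, and 30 of those remained. Kif15, a spindle kinesin, had 23.6 FPKM in TAP knockdown and 5.70 FPKM in iQNP knockdown cells (1.88). Hmmr, a spindle assembly protein, had 83.1 FPKM in TAP knockdown and 22.9 FPKM in iQNP knockdown cells (1.82). Aspm, a protein of spindle poles, had 37.4 FPKM in TAP and 10.2 FPKM in iQNP (1.78), and the checkpoint kinase gene Bub1 59.9 FPKM in TAP and 16.997 FPKM in iQNP (1.76). These 4 had control ratios of 1.78, 1.66, 1.96 and 2.02, so all of them were higher in TAP in both comparisons. The cyclin B gene Ccnb1 was higher too, at 102 FPKM in TAP knockdown and 35.9 FPKM in iQNP knockdown cells (1.48, and 1.07 in control). Ccnb2 had 57.5 FPKM in TAP knockdown and 23.6 FPKM in iQNP knockdown cells (1.25). It was listed at 0.555 FPKM in TAP control and 0.458 FPKM in iQNP control cells (0.09), and it has named pseudogenes, so its levels are uncertain. Cdc20, the activator of the anaphase-promoting complex, was at 89.5 FPKM in TAP knockdown and 90.5 FPKM in iQNP knockdown cells (-0.02), the lowest ratio of the list, against 44.8 FPKM in TAP control and 28.5 FPKM in iQNP control cells (0.63). Espl1, the separase gene, had a ratio of 1.67 after knockdown and 0.48 in control.

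Families added after their values were seen are left out of the next ranking, and the remaining lists were written with earlier results of these data known. Among those lists replication genes had the next largest share. Of 52 measured, 23 were higher after knockdown and 0 lower, with a median of 0.97, and in control 18 of 51, with a median of 0.81. Under the other scalings the knockdown count was between 28 and 36, since many members lie just below 2-fold. Top2a (chr10:87771337-87800962 in rn4), the topoisomerase that untangles replicated DNA, stood at 172 FPKM in TAP knockdown and 33.1 FPKM in iQNP knockdown cells (2.34), against 346 FPKM in TAP control and 65.8 FPKM in iQNP control cells (2.38). The polymerase epsilon subunit genes Pole2 (17.8 FPKM in TAP and 4.63 FPKM in iQNP, 1.74) and Pole (15.7 FPKM in TAP and 5.13 FPKM in iQNP, 1.44), the initiation factor gene Mcm10 (1.65) and Gins1, of the replicative helicase (1.54, and 0.81 in control), followed. The helicase genes Mcm4, Mcm5, Mcm6 and Mcm7 were at 1.15, 1.25, 1.36 and 1.07, and Mcm2 and Mcm3 below 2-fold, at 0.84 and 0.89. The members with the lowest ratios were Rfc3 (-0.34), of the clamp loader, and Mms22l (-0.08), a protein of stalled fork repair.

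Cyclins divided between the states. Of 16 measured genes of the G1 to S transition 5 were higher and 1 was lower after knockdown. Skp2, which targets a cyclin-dependent kinase inhibitor for degradation, had 25.3 FPKM in TAP knockdown and 6.06 FPKM in iQNP knockdown cells (1.89), and Ccna2, Ccne2, E2f7 and Cdk2 had ratios of 1.64, 1.54, 1.64 and 1.21. The lower one was Ccnd2, cyclin D2, at 35.01 FPKM in TAP knockdown and 152 FPKM in iQNP knockdown cells (-2.08), against 71.9 FPKM in TAP control and 325 FPKM in iQNP control cells (-2.16), whereas Ccnd1 stood at 286 FPKM in TAP knockdown and 263 FPKM in iQNP knockdown cells (0.12). Among 24 measured inhibitors and quiescence genes 1 was higher, Rbl1, a relative of the retinoblastoma gene (1.31), and 4 lower. Over all measured genes the shares were 4.18% higher and 9.66% lower. Cdkn2b, the kinase inhibitor p15, stood at 20.9 FPKM in TAP knockdown and 54.5 FPKM in iQNP knockdown cells (-1.34), Foxo1 at -1.54 and Klf2 at -1.86, while the inhibitor genes Cdkn1a (-0.38), Cdkn1b (-0.25) and Cdkn1c (-0.45) differed by less. Of 16 measured canonical histone genes, made mainly in S phase, 5 were higher and 0 lower, led by Hist3h2bb (1.93) and Hist1h1b (1.74), and copies of near-identical sequence make these values uncertain. Lmnb1, Lbr and Tmpo, genes of the nuclear lamina, were higher (2.07, 1.72 and 1.76) and Lmna, the A-type lamin, was lower (-1.40), a family chosen after its values were seen.

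Promoters of cell cycle genes are shown because many hold a short element. RefSeq start sites were matched to 7901 of the 9745 measured genes, and the 250 bases before and 50 after each start were searched on both strands, with 1 start per gene. The cell cycle genes homology region (CHR), known in cell cycle genes as the site of repressor and activator complexes, was searched as TTTGAA. It was present in 30 of 44 mitosis promoters (68.2%), 5 of 44 replication promoters (11.4%) and 10.9% of all measured promoters. It was not limited to genes higher in TAP, as 9 of 23 BMP signalling promoters (39.1%) and 2 of 9 promoters of the G1 to S list held it too. It stood in 25.6% of 320 promoters of higher and 9.42% of 711 of lower genes. Outside the mitosis, replication and G1 to S lists it stood in 21.2% of 269 promoters of higher genes. The letters CCAAT were found in 75% of mitosis promoters and 38.3% of all. The E2F element, searched as GCGGGAA, was present in 18 of 44 replication promoters (40.9%), 9.09% of mitosis promoters and 8.58% of all. These are descriptions of letters and not of bound factors. The windows shown run from 120 bases before to 30 bases after the start, 5′ to 3′ in the gene's direction in build GRCr8, with the CHR in capitals in Top2a, Hmmr, Aspm and Kif15, which had large ratios, and in Cdc20, which did not, and with the E2F letters in capitals in Mcm5 and Rfc4, a clamp loader gene (1.15). They lie at chr10:84473064-84473213 (Top2a, minus strand), chr10:25665186-25665335 (Hmmr, minus), chr13:53625464-53625613 (Aspm, plus), chr8:131479284-131479433 (Kif15, plus), chr5:137255770-137255919 (Cdc20, minus), chr19:13488693-13488842 (Mcm5, plus) and chr11:91254153-91254302 (Rfc4, plus).
Top2a: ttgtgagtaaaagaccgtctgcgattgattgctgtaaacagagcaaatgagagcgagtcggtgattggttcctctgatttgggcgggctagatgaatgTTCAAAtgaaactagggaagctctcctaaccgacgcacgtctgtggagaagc
Hmmr: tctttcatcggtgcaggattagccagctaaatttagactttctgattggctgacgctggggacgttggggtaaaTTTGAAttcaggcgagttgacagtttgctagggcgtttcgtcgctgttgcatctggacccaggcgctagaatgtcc
Aspm: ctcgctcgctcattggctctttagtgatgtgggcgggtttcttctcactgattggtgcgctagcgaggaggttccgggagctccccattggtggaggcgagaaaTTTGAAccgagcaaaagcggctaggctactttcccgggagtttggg
Kif15: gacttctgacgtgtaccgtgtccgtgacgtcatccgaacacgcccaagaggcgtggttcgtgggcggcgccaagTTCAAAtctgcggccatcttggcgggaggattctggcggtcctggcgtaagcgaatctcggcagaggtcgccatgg
Cdc20: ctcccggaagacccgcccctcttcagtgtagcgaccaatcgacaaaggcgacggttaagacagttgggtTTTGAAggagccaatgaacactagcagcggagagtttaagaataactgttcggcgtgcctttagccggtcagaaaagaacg
Mcm5: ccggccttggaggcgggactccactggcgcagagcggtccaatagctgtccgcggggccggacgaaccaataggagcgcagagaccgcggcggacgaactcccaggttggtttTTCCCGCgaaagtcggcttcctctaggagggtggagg
Rfc4: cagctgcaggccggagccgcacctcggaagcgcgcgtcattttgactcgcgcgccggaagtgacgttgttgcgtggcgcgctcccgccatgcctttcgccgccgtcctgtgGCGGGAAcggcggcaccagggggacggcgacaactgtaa

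**Figure D2:**
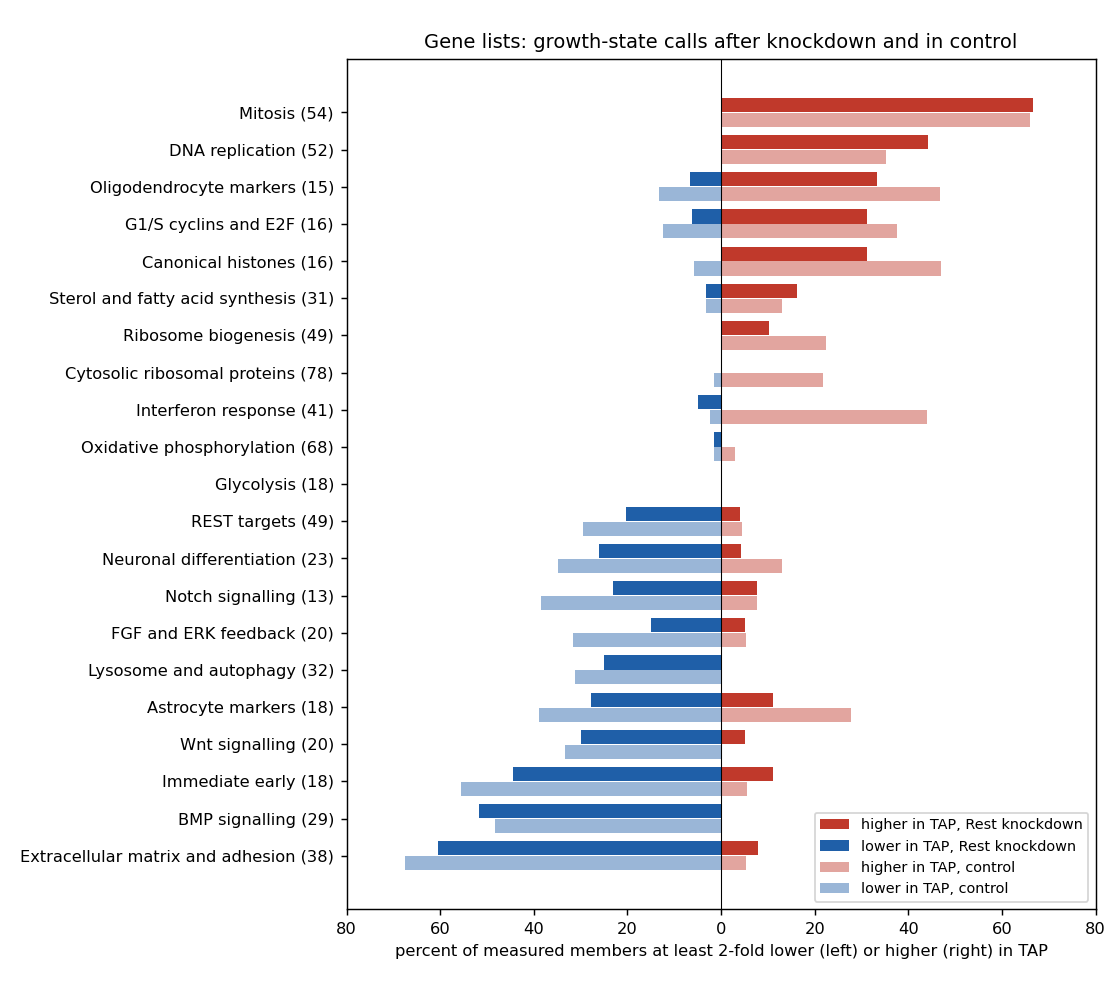
Percent of the measured members of 21 gene lists that were at least 2-fold higher (right, red) or lower (left, blue) in TAP than in iQNP, after Rest knockdown (upper, dark bar) and in control (lower, pale bar), with the number measured after knockdown in brackets. Mitosis has 36 of 54 higher and extracellular matrix 23 of 38 lower after knockdown, and the bars of the interferon and ribosomal protein lists to the right are present in control only.

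Members of the BMP pathway, whose ligand BMP4 was in the medium of the iQNP cells only, were lower in TAP after knockdown. Of 29 measured members 15 were lower and 0 higher, with a median of -1.01, and in control 14 were lower with a median of -0.83. Among the ligands Bmp2 (-0.56), Bmp4 (-0.45) and Bmp7 (0.57) were within 2-fold, and Bmp6 was below 1 FPKM in all groups. Genes of the receptors and of the receptor-regulated and common SMADs also stayed within 2-fold, with Bmpr1a at -0.02, Bmpr2 at -0.62, Smad1 at -0.45, Smad5 at -0.47 and Smad4, the shared partner, at 0.04. The differences lay in inhibitors and targets.

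Several secreted and intracellular inhibitors had large ratios, with Nog the largest in size of the pathway. Nog (chr10:77689244-77690871 in rn4), which encodes the BMP antagonist noggin, stood at 4.84 FPKM in TAP knockdown and 144 FPKM in iQNP knockdown cells (-4.63), against 3.14 FPKM in TAP control and 45.8 FPKM in iQNP control cells (-3.50). Grem1, another secreted antagonist, had 0.932 FPKM in TAP knockdown and 20.9 FPKM in iQNP knockdown cells (-3.50), and Bambi, a decoy receptor, 15.4 FPKM in TAP and 141 FPKM in iQNP (-3.12). The inhibitory SMAD genes Smad6 (3.996 FPKM in TAP and 45.2 FPKM in iQNP, -3.21) and Smad7 (-2.04) were lower as well. For Nog, Bambi, Smad6 and Smad7 the ratio was larger in size after knockdown than in control, where it was -3.50, -2.32, -2.45 and -1.74. The ratio was smaller in size after knockdown for Grem1 (-3.50, and -3.81 in control), Fst (-1.45 and -2.55) and Bmper (-1.77 and -1.87). Chrd, the antagonist chordin, and Smad9, of the BMP-specific SMADs, were within 2-fold (-0.80 and -0.61).

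Direct targets of BMP signals had ratios below zero of differing size. Id1, the classical target and an inhibitor of differentiation factors, had 177 FPKM in TAP knockdown and 426 FPKM in iQNP knockdown cells (-1.26), against 200.01 FPKM in TAP control and 259.7 FPKM in iQNP control cells (-0.38), so that it was 2-fold apart after knockdown only. Id2 was at -1.75. Id4, at -1.01, was just past the 2-fold limit and within it under each of the other scalings, and Id3, at -0.82, did not reach it. The homeobox gene Msx2 had 0.936 FPKM in TAP knockdown and 34.9 FPKM in iQNP knockdown cells (-4.21), and Dlx2 2.65 FPKM in TAP and 49.5 FPKM in iQNP (-3.79). The Dlx family, chosen after its values were seen, had 4 of 5 members lower, with Dlx5 at 10.9 FPKM in TAP knockdown and 187 FPKM in iQNP knockdown cells (-3.98). A GC-rich letter string known from SMAD-bound sites, GGCGCC, was present in 9 of 23 promoters of the pathway (39.1%), 22.3% of all measured promoters and 21.9% of those of lower genes. It was not particular to the pathway, since 4 of 9 promoters of the G1 to S list (44.4%) held it. The promoter of Nog is shown as the member with the largest ratio, with this string in capitals (chr10:74627472-74627621, minus strand, build GRCr8).
Nog: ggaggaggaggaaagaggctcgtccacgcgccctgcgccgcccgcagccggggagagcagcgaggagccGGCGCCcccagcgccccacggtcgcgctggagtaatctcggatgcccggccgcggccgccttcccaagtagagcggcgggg

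Where both knockdown groups reached 1 FPKM, the largest ratios in size were all of genes lower in TAP. Igfbp7 (chr14:33010198-33107615 in rn4), a secreted protein that binds insulin-like growth factors, had 13.9 FPKM in TAP knockdown and 996 FPKM in iQNP knockdown cells (-6.06), against 24.3 FPKM in TAP control and 1769.7 FPKM in iQNP control cells (-6.13). Npvf, a precursor of RFamide neuropeptides, had 36.7 FPKM in TAP knockdown and 2475 FPKM in iQNP knockdown cells (-6.04), and was listed at 0 in TAP control and at 354 FPKM in iQNP control cells. Npy, neuropeptide Y, had 154 FPKM in TAP knockdown and 6681 FPKM in iQNP knockdown cells (-5.43), against 152 FPKM in TAP control and 10699 FPKM in iQNP control cells (-6.13). Ngfr, the neurotrophin receptor p75, was at 6.01 FPKM in TAP knockdown and 331 FPKM in iQNP knockdown cells (-5.57). All of these were lower in TAP in both comparisons. Cryab, a small heat shock protein, had 193 FPKM in TAP knockdown and 4747 FPKM in iQNP knockdown cells (-4.62), Prss23, a secreted protease, 5.68 FPKM in TAP and 164 FPKM in iQNP (-4.63), and Nppb, brain natriuretic peptide, 1.0003 FPKM in TAP and 45.96 FPKM in iQNP (-4.55).

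Whole families of these genes were looked at after their values were seen. Of 10 measured S100 genes 9 were lower in TAP and 0 higher. S100a4 stood at 154 FPKM in TAP knockdown and 3218 FPKM in iQNP knockdown cells (-4.38), against 32.4 FPKM in TAP control and 2708 FPKM in iQNP control cells (-6.34), and S100a6 at 40.9 FPKM in TAP and 969 FPKM in iQNP (-4.53), against 3.46 FPKM in TAP control and 598 FPKM in iQNP control (-7.07), so both ratios were smaller in size after knockdown. Of 7 measured annexins 5 were lower, Anxa1 most (30.98 FPKM in TAP knockdown and 460.1 FPKM in iQNP knockdown cells, -3.85), and 1, Anxa6, was higher (1.94). Of 5 measured Igfbp genes 4 were lower and Igfbp4 was higher (1.20). Of 12 measured neuropeptide and peptide hormone genes 7 were lower and 2 higher, with Sst, somatostatin, at 11.03 FPKM in TAP knockdown and 108 FPKM in iQNP knockdown cells (-3.18). Of 6 measured small heat shock genes 4 were lower, and of 10 measured serpins 7, with 0 higher.

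Families added after their values were seen are again left out here, and the other lists were written with earlier results of these data known. Among those of 10 or more measured genes, extracellular matrix and adhesion had the largest share of lower members. Of 38 measured, 23 were lower in TAP and 3 higher after knockdown, with a median of -1.22, and all 23 of the lower ones were among the 25 lower in control (median -1.78). Fn1, fibronectin, had 2.63 FPKM in TAP knockdown and 57.2 FPKM in iQNP knockdown cells (-4.004). Sparc, a matrix protein that regulates adhesion, had 128 FPKM in TAP knockdown and 1163 FPKM in iQNP knockdown cells (-3.17). Cd44, the hyaluronan receptor, had 36.2 FPKM in TAP and 473 FPKM in iQNP (-3.67), Col6a2, of collagen VI, 5.30 FPKM in TAP and 85.7 FPKM in iQNP (-3.78), and the integrin gene Itgb5 12.4 FPKM in TAP and 104 FPKM in iQNP (-2.97). Cdh2, N-cadherin, which anchors stem cells, was at -1.28 and Vcam1, an adhesion molecule of quiescent stem cells, at -1.57. The exceptions above 2-fold were Ncam2, Tnr, a matrix protein of the nervous system (1.40), and Mmp2, a matrix protease (1.08, and -0.14 in control). The transmembrane proteases Mmp15 (1.89), Mmp16 (1.68) and Mmp17 (1.54) were higher and Mmp19 lower (-3.35), a family chosen after its values were seen.

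The coactivator TAZ and genes induced by TAZ and YAP, which relay contact and tension of the cell, were lower more often than higher. In this set, chosen after its values were seen, 9 of 19 measured genes were lower and 1 was higher. Cyr61, a matricellular protein, had 12.05 FPKM in TAP knockdown and 250.4 FPKM in iQNP knockdown cells (-4.27), against 6.25 FPKM in TAP control and 325 FPKM in iQNP control cells (-5.49). Ctgf, its relative, had 4.74 FPKM in TAP knockdown and 82.5 FPKM in iQNP knockdown cells (-3.86), and Wwtr1, which encodes TAZ, 3.57 FPKM in TAP and 46.6 FPKM in iQNP (-3.38). Genes below 1 FPKM in TAP knockdown included the cartilage proteoglycan gene Acan (0.445 FPKM in TAP knockdown and 26.8 FPKM in iQNP knockdown cells), Ass1 of arginine synthesis (0.447 FPKM in TAP and 23.7 FPKM in iQNP) and the carbonic anhydrase gene Car9 (0.993 FPKM in TAP and 30.2 FPKM in iQNP). Mir199a, Mir3561 and Mir3074 were listed at 183, 33.98 and 27.5 FPKM in iQNP knockdown and at 0 in the other groups, and levels of such short hairpin entries in a library of this kind do not measure the mature miRNA.

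**Figure D3:**
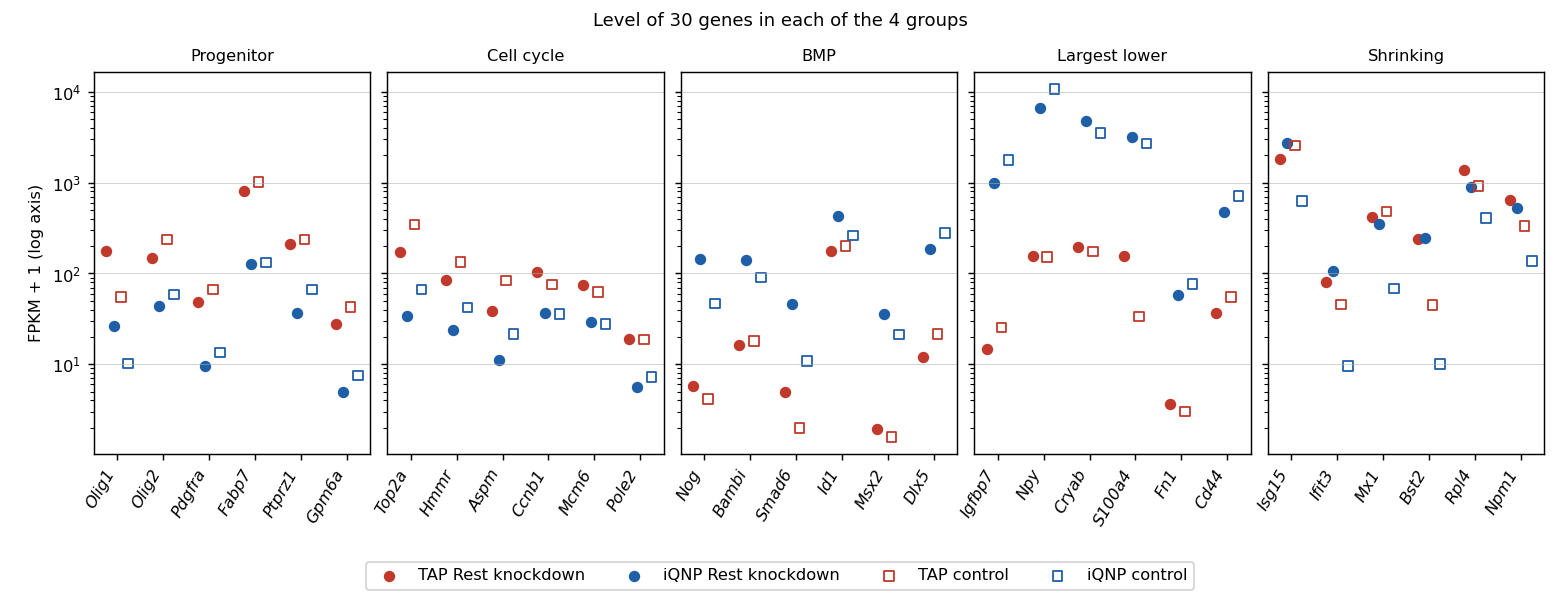
Level of 30 genes in FPKM plus 1 (log axis) in the 4 groups, each point being the authors' value for the group, with knockdown as filled circles, control as open squares, TAP in red and iQNP in blue. Progenitor and cell cycle genes are higher in TAP with and without knockdown, and the BMP and largest lower genes are lower in both, while for Isg15 the levels of 1818 FPKM in TAP knockdown and 2709.6 FPKM in iQNP knockdown cells lie closer than in control.

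Other signalling pathways were mixed. In the Wnt list 6 of 20 measured genes were lower and 1 was higher. The secreted Wnt inhibitors had the largest ratios, Dkk1 at 1.26 FPKM in TAP knockdown and 66.5 FPKM in iQNP knockdown cells (-4.90) and Wif1 at 13.96 FPKM in TAP and 283 FPKM in iQNP (-4.24), and Lef1, a nuclear effector, was at -1.61 after knockdown and -0.86 in control. The higher one was the ligand gene Wnt7b, at 3.999 FPKM in TAP knockdown and 1.43 FPKM in iQNP knockdown cells (1.04). In the Notch list 3 of 13 genes were lower, the target genes Hey1 (8.23 FPKM in TAP and 78.5 FPKM in iQNP, -3.11) and Hes1 (-1.07, and -0.83 with the same sum of FPKM without ribosomal protein genes) and the inhibitor gene Numb (-1.36), and the receptor gene Notch1 was higher (1.01, and 0.27 in control). In the FGF and ERK list 3 of 20 were lower and 1 was higher (Spry3, 1.21), against 6 lower and 1 higher in control. Over all measured genes 9.66% were lower and 4.18% higher after knockdown. Fgfr3 had 65.2 FPKM in TAP knockdown and 223 FPKM in iQNP knockdown cells (-1.76), whereas the feedback genes Spry2 and Dusp4 were within 2-fold after knockdown (-0.40 and -0.27) and lower in control (-1.67 and -1.13).

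Immediate early genes, which respond within minutes to growth factors and stress, were lower in TAP more often than higher. Of 18 measured, 8 were lower and 2 higher, with a median of -0.82, and in control 10 were lower (median -1.16). Junb, an AP-1 subunit, had 22.4 FPKM in TAP knockdown and 164 FPKM in iQNP knockdown cells (-2.82), and Egr2 0.809 FPKM in TAP and 12.2 FPKM in iQNP (-2.87), while Fos (-0.66) and Jun (-0.35) were within 2-fold. The higher ones were Myc, a driver of growth, with 165 FPKM in TAP knockdown and 72.5 FPKM in iQNP knockdown cells (1.18, and 2.16 in control), and the nuclear receptor gene Nr4a1 (1.02, and 0.86 in control). The AP-1 letters TGACTCA were found in 46 of 711 promoters of lower genes (6.47%), 1.88% of those of higher genes and 3.19% of all measured promoters, TATAAA in 11.1%, 7.19% and 6.40%, and the TEAD letters GGAATG in 15.05%, 10.3% and 11.1%. Lower genes spanned a median of 15163 bases in rn4, against 26510 for higher and 21323 for all measured genes.

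Known REST targets were lower in TAP more often than higher, as were all measured genes, and their median was near that of all genes. Of 49 measured targets, taken from textbook knowledge of neuronal genes, 2 were higher and 10 lower in TAP after knockdown. Among all measured genes 4.18% were higher and 9.66% lower. The median of the targets was -0.04, against -0.07 over all measured genes. In control 2 of 44 were higher and 13 lower (median -0.33). Under the other scalings 7 to 9 were lower after knockdown, with medians from 0.00 to 0.16. Scg2, a secretory granule protein, had 6.36 FPKM in TAP knockdown and 32.2 FPKM in iQNP knockdown cells (-2.17), against 0.168 FPKM in TAP control and 6.002 FPKM in iQNP control cells (-2.58). Scg5, a chaperone of the secretory pathway, had 0.134 FPKM in TAP knockdown and 4.58 FPKM in iQNP knockdown cells (-2.30), and Gad1, the enzyme that makes GABA, 2.17 FPKM in TAP and 12.6 FPKM in iQNP (-2.10). The neurofilament gene Nefm (-1.75) and the adhesion molecule gene L1cam (-1.44) were lower too. The higher ones were Celsr2, an adhesion receptor (12.8 FPKM in TAP and 4.88 FPKM in iQNP, 1.23, and 0.13 in control), and Syt7, a calcium sensor of exocytosis (1.05).

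For the glutamate receptor subunit gene Gria2, also a REST target, the states had nearly equal levels after knockdown. It stood at 60.7 FPKM in TAP knockdown and 62.02 FPKM in iQNP knockdown cells (-0.03), against 26.5 FPKM in TAP control and 115 FPKM in iQNP control cells (-2.08), so the TAP level was higher and the iQNP level lower with knockdown than without. The synaptic genes Snap25 (-0.42), Syt1 (-0.50) and Scg3 (0.65) were within 2-fold. Of 23 measured neuronal differentiation genes 6 were lower and 1 was higher, Myt1, a neuronal zinc finger factor (37.6 FPKM in TAP knockdown and 9.32 FPKM in iQNP knockdown cells, 1.90), and Neurod2 and Neurog1 were below 1 FPKM in all groups. Of 12 measured neuron markers 1 was higher (Camk2b, 1.49) and 3 lower.

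Interferon response genes were often higher in TAP in control, and none reached 2-fold higher after knockdown, a contrast between the comparisons that was not tested. These genes, induced by interferons and by foreign RNA, were higher in TAP control for 18 of 41 measured members (median 0.87). After knockdown 0 of 41 were higher and 2 lower (median -0.05), and under the other scalings at most 1 was higher. Mx1, an antiviral GTPase, had 422 FPKM in TAP knockdown and 349 FPKM in iQNP knockdown cells (0.27), against 480.1 FPKM in TAP control and 67.3 FPKM in iQNP control cells (2.82). Isg15 (chr5:173034479-173035766 in rn4), a ubiquitin-like modifier, had 1818 FPKM in TAP knockdown and 2709.6 FPKM in iQNP knockdown cells (-0.58), against 2566 FPKM in TAP control and 629 FPKM in iQNP control cells (2.03). For both it was the iQNP level that stood higher with knockdown, while the TAP level stood slightly lower.

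For other members both states stood higher with knockdown, iQNP by more. Ifit3 had 79.7 FPKM in TAP knockdown and 106 FPKM in iQNP knockdown cells (-0.40), against 44.7 FPKM in TAP control and 8.56 FPKM in iQNP control cells (2.26). Bst2, which tethers virus particles to the cell, had 238 FPKM in TAP knockdown and 247 FPKM in iQNP knockdown cells (-0.05), against 43.7 FPKM in TAP control and 9.13 FPKM in iQNP control cells (2.14). Over the list the median log2 ratio of knockdown to control was 0.82 in TAP and 1.72 in iQNP. Medians above zero were not particular to these genes. Housekeeping genes had medians of 0.45 in TAP and 0.44 in iQNP, and oxidative phosphorylation genes 1.27 in TAP and 1.51 in iQNP. The median over all measured genes was not computed for this ratio. The members below zero by more than 2-fold after knockdown were Gbp2, a GTPase (88.4 FPKM in TAP knockdown and 309 FPKM in iQNP knockdown cells, -1.79), and Ifitm3, an antiviral membrane protein (402 FPKM in TAP and 1137 FPKM in iQNP, -1.50). The control groups have fewer libraries than the knockdown groups, and the part of a single control library in this result was not tested.

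Interferon promoters held a different element. A pair of GAAA strings separated by 2 bases of any kind, the core of the interferon-stimulated response element, was present in 22 of 33 interferon promoters (66.7%), 2 of 44 mitosis promoters and 2.91% of all measured promoters. Among the genes that differed between the knockdown groups it stood in 2.81% of promoters of higher and 2.67% of lower genes. The promoters of Ifit3 (chr1:241527206-241527355, plus strand, build GRCr8) and of Irf7 (chr1:205799994-205800143, minus strand), a transcription factor of the response with ratios of 0.09 after knockdown and 1.72 in control, are shown with this pair and its spacer in capitals, read on the other strand.
Ifit3: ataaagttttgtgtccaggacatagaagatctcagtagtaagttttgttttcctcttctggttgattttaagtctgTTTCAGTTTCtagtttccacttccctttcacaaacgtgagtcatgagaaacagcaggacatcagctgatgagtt
Irf7: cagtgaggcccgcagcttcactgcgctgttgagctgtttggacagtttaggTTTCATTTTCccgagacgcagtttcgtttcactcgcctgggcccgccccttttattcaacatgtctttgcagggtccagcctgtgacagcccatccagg

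**Figure D4:**
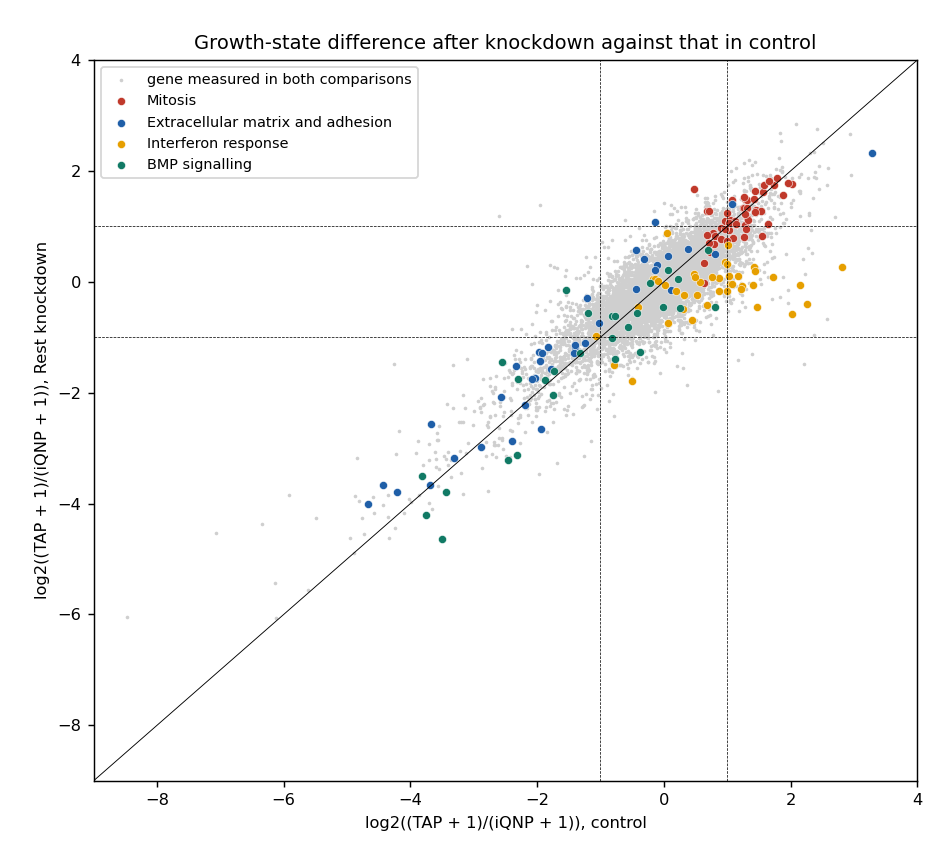
Log2 ratio of TAP to iQNP after Rest knockdown (vertical axis) against that in control (horizontal axis), 1 point for each of 9425 genes measured in both, with 4 lists in colour, equal ratios on the solid line and 2-fold limits dashed. Mitosis genes (red) lie along the line at upper right and matrix and BMP genes at lower left, while interferon genes (orange) spread to the right at ratios near zero after knockdown.

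Genes of cytosolic ribosomal proteins had small ratios in a common direction. After knockdown 0 of 78 measured were 2-fold higher in TAP and 0 lower, yet 70 had a ratio above zero (median 0.43), against 15 of 69 higher and 1 lower in control (median 0.74). Under the other scalings 0 to 3 were higher after knockdown and 15 to 28 in control. Their levels are uncertain, since all 78 have a named pseudogene, and in the control groups 21 (TAP) and 24 (iQNP) of them were listed below 10 FPKM, against 1 in each knockdown group. Of 49 measured ribosome biogenesis genes 5 were higher after knockdown, with a median of 0.49, and 11 in control (median 0.73). Under the other scalings 7 to 11 were higher after knockdown and 11 to 22 in control. The RNA polymerase I subunit genes Polr1b (22.2 FPKM in TAP knockdown and 9.18 FPKM in iQNP knockdown cells, 1.19) and Polr1e (1.12) led, and Ncl, nucleolin, was within 2-fold after knockdown (0.46) and higher in control (1.10).

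The genes that the study followed up, chosen by its authors on these samples, were within 2-fold between the states after knockdown. In control 4 of the 7 were higher in TAP (median 1.06), after knockdown 0 (median 0.28). The paper drew them from REST-bound genes raised by knockdown in iQNP cells and not counted as targets in TAP cells. That choice favours a smaller ratio of TAP to iQNP after knockdown, so the contrast is no independent result. Npm1, nucleophosmin, had 639 FPKM in TAP knockdown and 526 FPKM in iQNP knockdown cells (0.28), against 332 FPKM in TAP control and 137 FPKM in iQNP control cells (1.27). Rpl4, a ribosomal protein, had 1369 FPKM in TAP knockdown and 897 FPKM in iQNP knockdown cells (0.61), against 915 FPKM in TAP control and 409 FPKM in iQNP control (1.16), and Rps6 had a ratio of -0.35 after knockdown and 0.98 in control. Npm1, Rpl4 and Rps6 have named pseudogenes, so their levels are uncertain. Mms22l had 15.6 FPKM in TAP knockdown and 16.5 FPKM in iQNP knockdown cells (-0.08), against 16.5 FPKM in TAP control and 6.90 FPKM in iQNP control cells (1.15), so that its iQNP level was higher and its TAP level nearly the same with knockdown. Tipin, of the fork protection complex, was at 0.85 and 0.85.

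Metabolic lists differed little except for sterol synthesis and lysosomes. Of 31 measured sterol and fatty acid genes 5 were higher and 1 was lower (median 0.44), and under the other scalings up to 13 were higher. Acaca, the first enzyme of fatty acid synthesis, had 30.4 FPKM in TAP knockdown and 10.4 FPKM in iQNP knockdown cells (1.47). Hmgcs1, an early enzyme of cholesterol synthesis, had 432 FPKM in TAP knockdown and 187 FPKM in iQNP knockdown cells (1.20), and Stard4, a sterol carrier, had 22.7 FPKM in TAP and 7.94 FPKM in iQNP (1.41). Of 32 measured lysosome and autophagy genes 8 were lower and 31 had a ratio below zero (median -0.64, and -0.65 in control), with 4 lower under the same sum of FPKM without ribosomal protein genes. Npc2, a cholesterol carrier of lysosomes, had 78.9 FPKM in TAP knockdown and 260.01 FPKM in iQNP knockdown cells (-1.71), the membrane protein gene Cd63 793 FPKM in TAP and 1864 FPKM in iQNP (-1.23), and Mitf, a transcription factor of lysosomal genes, 32.8 FPKM in TAP and 85.4 FPKM in iQNP (-1.35, and -0.15 in control). Of 68 measured oxidative phosphorylation genes 0 were higher and 1 was lower (Cox6c, -1.07), and no glycolysis gene of 18 reached 2-fold. Of 15 measured p53 targets 2 were lower, Gadd45a (-2.41) and Phlda3 (-1.32), and of 32 housekeeping genes 1 was higher, Tfrc, the transferrin receptor (1.38). Both counts stand beside 9.66% lower and 4.18% higher over all measured genes.

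**Figure D5:**
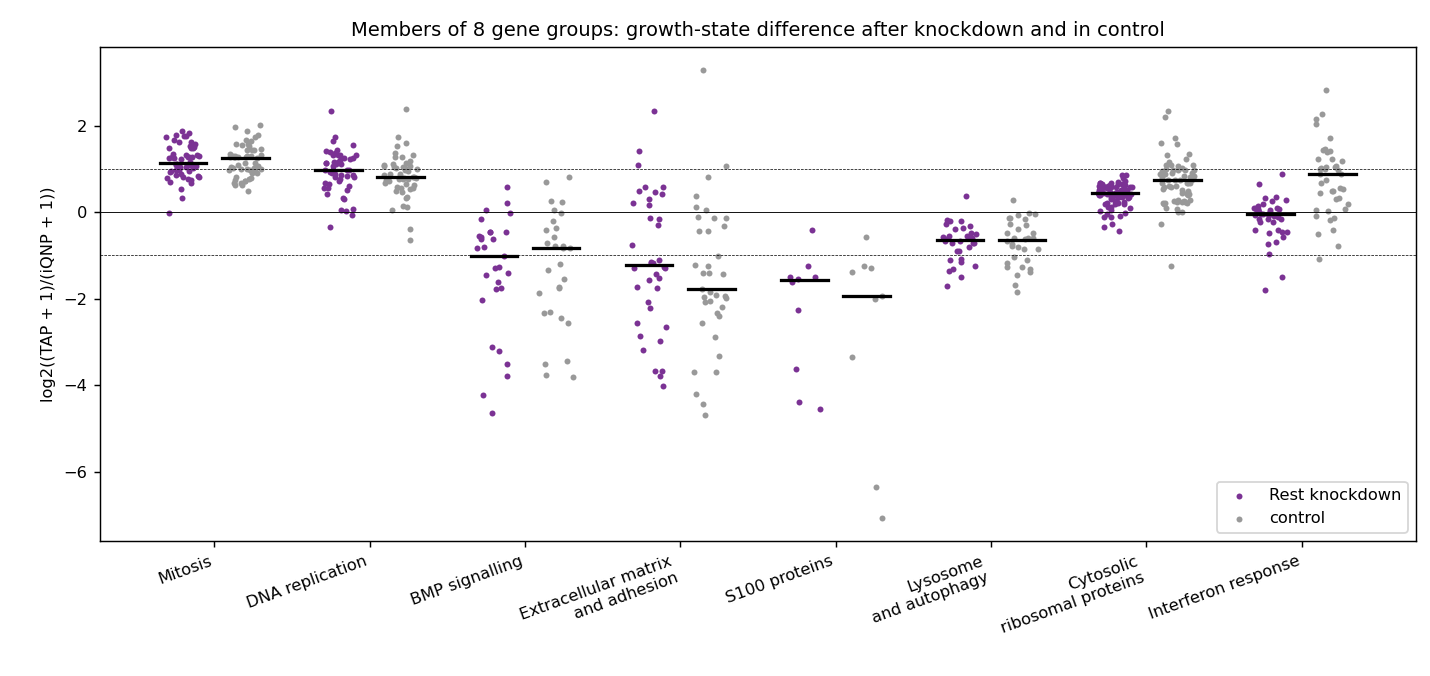
Log2 ratio of TAP to iQNP (vertical axis) of each measured member of 8 gene groups, after Rest knockdown (left, purple) and in control (right, grey), with the median as a bar and 2-fold limits dashed. The medians of mitosis genes are 1.14 after knockdown and 1.25 in control, and those of interferon genes -0.05 and 0.87.

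Some genes reached 2-fold after knockdown only. There were 133 with a control log2 ratio below 0.5 in size, 38 higher and 95 lower in TAP, of which 84 had at least 1 FPKM in all 4 groups. The following were chosen after their values were seen. Socs3, a feedback inhibitor of cytokine signals, had 41.4 FPKM in TAP knockdown and 14.7 FPKM in iQNP knockdown cells (1.43), against 8.32 FPKM in TAP control and 8.34 FPKM in iQNP control cells (0.00). Dhx9, an RNA helicase, had a ratio of 1.35 after knockdown and 0.26 in control, and the activin receptor gene Acvr2b 1.26 and 0.35. On the lower side the stress factor gene Ddit3 had 168 FPKM in TAP knockdown and 396 FPKM in iQNP knockdown cells (-1.23), against 162 FPKM in TAP control and 187 FPKM in iQNP control cells (-0.21), and Tsc22d3, a target of glucocorticoids and FOXO factors, had ratios of -1.73 and -0.50. By the rule for named genes, the largest shifts of the ratio downwards beside the interferon genes included Agps, an enzyme of ether lipid synthesis, with 57.98 FPKM in TAP knockdown and 213 FPKM in iQNP knockdown cells (-1.86), against 539 FPKM in TAP control and 419.8 FPKM in iQNP control cells (0.36), and the largest upwards included Nrep (0.28 after knockdown, -2.17 in control) and Sez6, a neuronal membrane protein (-1.39 and -3.10).

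The control differences that were below 2-fold after knockdown can be split by the state in which the level differed. The 369 genes that had been higher in TAP control had a median level of 27.8 FPKM in TAP knockdown and 16.6 FPKM in iQNP knockdown cells, against 27.2 FPKM in TAP control and 9.53 FPKM in iQNP control cells. Of them 104 were at least 2-fold higher in iQNP with knockdown and 100 at least 2-fold lower in TAP with knockdown. The other way, 62 were at least 2-fold higher in TAP and 6 at least 2-fold lower in iQNP with knockdown. The 377 genes that had been lower in TAP control had medians of 6.73 FPKM in TAP knockdown and 11.5 FPKM in iQNP knockdown cells, against 3.70 FPKM in TAP control and 10.5 FPKM in iQNP control cells, with 100 at least 2-fold higher in TAP with knockdown and 43 at least 2-fold lower in iQNP with knockdown. Of these 377, 50 were at least 2-fold higher in iQNP and 3 at least 2-fold lower in TAP with knockdown. The share of all measured genes with such changes was not computed, so these counts have no background beside them. Since both sets were chosen by a control ratio that the same control levels set, shifts of the states towards each other are favoured by the choice itself.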

How the data were processed

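Total RNA of rat HCN neural stem cells, depleted of ribosomal RNA, was sequenced on an Illumina HiSeq. Per the labels the authors aligned the reads to rn4 with TopHat2 and compared control with knockdown libraries by Cuffdiff, once for TAP and once for iQNP cells (versions not given in the sources used here). The deposited values were the authors' FPKM, pooled over 4 knockdown or 2 control libraries a group, so the depth of single libraries is unknown. The tables also hold the authors' fold changes, p-values and q-values of knockdown against control, which were not used.

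Both tables were joined on gene symbol and locus with Python 3.11.15, pandas 2.3.3, numpy 2.4.6 and scipy 1.17.1, and plotted with matplotlib 3.10.9. Of the genes listed, 1 was left out because Cuffdiff marked its locus as too deep or failed. Starts in the files count from 0 and are printed from 1. The log2 ratio of TAP to iQNP used a pseudocount of 1 FPKM, a limit of 2-fold and a minimum of 1 FPKM in at least 1 group compared. The code was tested on simulated data. The design called for no test other than this description by size, since each group has a single pooled value. Alternatives were a pseudocount of 0.1 FPKM, folds of 1.5 and 4, other minimums, 4 scalings, genes of status OK only and genes without a named pseudogene.

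Named genes were Rest, the 7 genes the study followed up, the 12 largest ratios in each direction among genes of at least 1 FPKM in both knockdown groups, the 8 largest with 1 group below 1 FPKM and the other at 5 FPKM or more, the 10 largest present in both comparisons, the 8 largest shifts between comparisons, and up to 6 called members of each list plus its 3 defining ones, with some left out for length. Other genes named were chosen after their values were seen, as were 13 gene families beside the 30 lists. All members and lists were chosen with earlier results of these data known. RefSeq symbols or synonyms matched 9570 of 9745 measured genes, and promoter sequences came from RefSeq, build GRCr8, with the first start listed for each gene.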

Additional observations from a re-analysis of the deposited data

Results flagged for a closer look

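For 5 genes the difference between the growth states had opposite directions with and without knockdown, at 2-fold or more in each. The values are pooled over libraries, so none of these reversals was tested. Snhg4, a host gene of small nucleolar RNAs, had 38.5 FPKM in TAP knockdown and 16.3 FPKM in iQNP knockdown cells, against 8.43 FPKM in TAP control and 56.3 FPKM in iQNP control cells, and its log2 ratio after knockdown minus that in control was 3.79. The listed entry of Snhg4 spans only 237 bases in rn4, so its level is uncertain. Fxyd1, a regulator of the sodium pump, had 0.237 FPKM in TAP knockdown and 2.46 FPKM in iQNP knockdown cells, against 12.5 FPKM in TAP control and 1.90 FPKM in iQNP control cells (difference of the ratios -3.69). The other 3 were at low levels in all groups. Mdk, the growth factor midkine, had 0.446 FPKM in TAP knockdown and 2.58 FPKM in iQNP knockdown cells, against 1.62 FPKM in TAP control and a listed 0 in iQNP control cells (-2.70). The phosphatase gene Dusp23 had 0.351 FPKM in TAP knockdown and 2.60 FPKM in iQNP knockdown cells, against 1.24 FPKM in TAP control and a listed 0 in iQNP control cells (-2.58). LOC501038 was listed at 1.62 FPKM in TAP knockdown and 0 in iQNP knockdown cells, against 0 in TAP control and 2.88 FPKM in iQNP control cells (3.34).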

How the results depend on the processing

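Each count was recomputed under 12 alternatives. With a limit of 1.5-fold 1218 genes were higher and 2019 lower in TAP after knockdown, 1529 higher and 2100 lower in control, and 820 higher and 1402 lower in both comparisons, and with 4-fold the counts were 22 and 207, 53 and 245, and 9 and 155 in the same order. Scaling each group to the same sum of FPKM without ribosomal protein genes gave 742 higher genes after knockdown and 469 higher in both comparisons, since it adds to every log2 ratio. The other 58 recomputed counts were within 1.5 times the values given. The median of endothelial markers was 0.037 with no filter on low values, where it no longer rests on Flt1 alone, and that of glycolysis genes was 7.5e-05 with the same sum without ribosomal protein genes, in place of -1.17 and -0.25. Of the other list medians, 338 recomputed values were within 0.25 and 16 were not. Among 225 named genes measured, 15 passed or lost the 2-fold limit under a scaling, all with ratios near it. No paired analysis was possible because each group has a single pooled value, and for the same reason no library could be left out in turn. Library depth, spread between libraries and replicate batches are therefore unknown here, and differences near 2-fold, levels near 1 FPKM and genes that share sequence with pseudogenes are the least certain.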

Other observations

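Guidance molecules were divided between the states, in a family chosen after its values were seen. Of 24 measured semaphorin, plexin and neuropilin genes 3 were higher and 5 lower in TAP after knockdown, with a median of -0.21. Over all measured genes 4.18% were higher and 9.66% lower, so most members of this family were within 2-fold. The secreted class 3 semaphorins stood on both sides. Sema3f had 1.55 FPKM in TAP knockdown and 24.1 FPKM in iQNP knockdown cells (-3.30), and Sema3a and Sema3c had ratios of -1.27 and -2.19. Sema3d, in contrast, had 49.1 FPKM in TAP knockdown and 16.96 FPKM in iQNP knockdown cells (1.48), and Sema3e a ratio of 1.19. Nrp2, a receptor for these ligands, was at 3.53 FPKM in TAP knockdown and 19.4 FPKM in iQNP knockdown cells (-2.17). All of these had the same direction in control, where the ratios lay between -3.40 for Sema3f and 1.27 for Sema3d.

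Kinesins and serpins, likewise chosen after their values were seen, each had called members in 1 direction only. Of 25 measured kinesin genes 8 were higher and 0 lower. Kif11, a motor that pushes spindle poles apart, had 42.4 FPKM in TAP knockdown and 11.8 FPKM in iQNP knockdown cells (1.76), whereas the transport motor genes Kif5a and Kif5c were within 2-fold after knockdown (-0.44 and -0.33) and lower in control (-1.02 and -1.13). Among the serpins Serpinf1, a secreted factor also called PEDF, had 1.58 FPKM in TAP knockdown and 36.01 FPKM in iQNP knockdown cells (-3.84), and Serpinh1, a collagen chaperone, 1.27 FPKM in TAP and 18.99 FPKM in iQNP (-3.14). Of 21 measured nuclear pore genes 3 were higher, Nup210, Nup85 (1.18) and Nup160 (1.11), and 0 lower. All these counts stand beside 4.18% higher and 9.66% lower over all measured genes. As with all values here, no replicate error stands behind these ratios.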
